A study of Mus musculus with 6 samples.

Results

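The replication-dependent histone genes that the deposited gene table lists under their older symbols, beginning with Hist1h, Hist2h, Hist3h or Hist4h, were compared between injured and non-injured mouse quadriceps. Protein-coding rows were chosen by symbol alone, which gave 7 genes of the 20015 in the table, 14638 of them protein-coding. They are Hist1h2an, Hist1h2ao and Hist1h2ap for histone H2A, Hist1h2bq and Hist1h2br for H2B, and Hist1h4m and Hist1h4n for H4. No gene for H1 or H3 carried such a symbol. By position, 45 further clustered histone genes stood in the table under newer symbols such as H1f2 or H4c3, so that 52 of the 67 clustered histone genes of the GENCODE M21 annotation were rows of it. The 7 are described gene by gene, and the 52 serve to place the H1, H2A, H2B, H3 and H4 classes. The libraries were 3 of quadriceps from limbs with an injured anterior cruciate ligament (ACL), a ligament that steadies the knee, and 3 of quadriceps from limbs without that injury, lettered A to C within each group. The labels give no strain, age, sex or time since injury, and do not tell separate animals from repeat samples, so that p-values here rest on a spread between libraries that could be technical. The organism is labelled mouse although other text of the series describes human quadriceps, and both mm10 and hg19 appear in the submitters' processing notes. Since 98.8% of the rows lie at a mouse M21 gene on mm10, the values were read as mouse. The deposited table is titled as myonuclear RNA, from nuclei of muscle fibres, whereas the extraction protocol describes TRIzol and a column kit and no step for nuclei, so it is not known whether the values are of nuclear or of total RNA. Totals ran from 6.45 to 7.50 M estimated counts in injured and from 7.23 to 8.75 M in non-injured libraries.

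Chromatin is built of nucleosomes, in which DNA is wound around a core of H2A, H2B, H3 and H4, while H1 binds the linker DNA. Cells that copy their DNA need new histones at once, and the clustered genes meet that need: they are many, short, without introns in their main form, and read mostly in S phase. Their mRNAs end in a conserved stem-loop in place of a poly(A) tail, which is bound by SLBP and through which the mRNA is processed and, when DNA synthesis stops, degraded. Some of these genes also give polyadenylated mRNA in cells that have left the cell cycle, as muscle fibres have. Whether the libraries were made by poly(A) selection is not given in the sources used here, and such a step would leave out most stem-loop mRNA.

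The 7 genes lay together on chromosome 13 (mm10), between bases 21786826 and 21837530, a span of 50705 bases. On the left, Hist1h2bq (21806612 to 21810197, minus strand), Hist1h2ao (21810465 to 21810944, plus strand) and Hist1h4m (21811746 to 21812147, plus strand) followed one another. On the right the same order stood in mirror image, with Hist1h4n (21831767 to 21832196, minus strand), Hist1h2ap (21833026 to 21833507, minus strand) and Hist1h2br (21833743 to 21837530, plus strand). In both copies an H2B and an H2A gene pointed away from each other across a short gap of 267 bases (Hist1h2bq to Hist1h2ao) or 235 bases (Hist1h2ap to Hist1h2br). The H4 gene followed 801 bases past Hist1h2ao and, in the other copy, 829 bases from Hist1h2ap. Hist1h2an (21786826 to 21787218, minus strand) lay outside both copies, 19393 bases to the left of Hist1h2bq. Clustered histone genes under newer symbols lay further to its left.

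**Figure D1:**
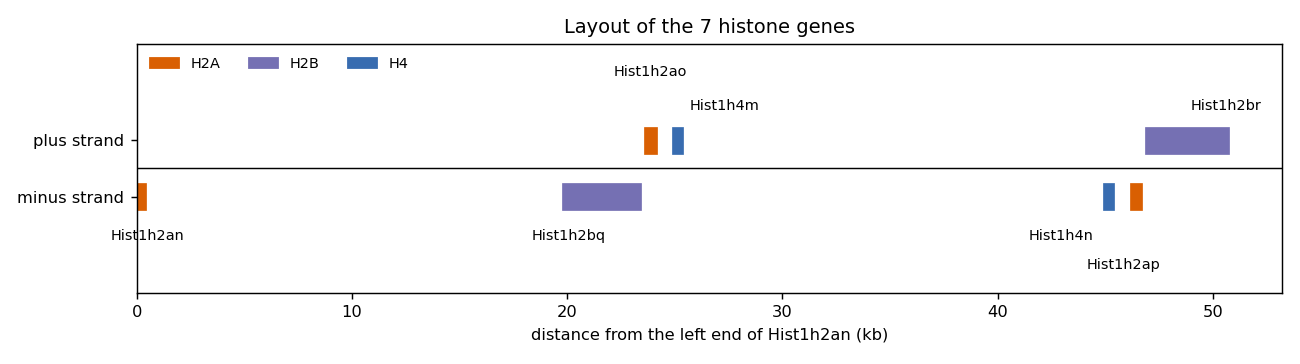
Position of the 7 genes, as distance in kb from the left end of Hist1h2an (horizontal axis), on the plus strand (upper row) and the minus strand (lower row), coloured by class. Hist1h2bq, Hist1h2ao and Hist1h4m recur in mirror image as Hist1h2br, Hist1h2ap and Hist1h4n.

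The promoters of the mirrored copies are shown because they bear on how alike the copies are around their starts. Each is a RefSeq window on GRCm38.p6 (the build of mm10) from 250 bases before to 50 bases after the annotated start, 5′ to 3′ on the gene's own strand, and all 7 genes matched an entry through a synonym. RefSeq and M21 starts differed by 0 to 98 bases. Capitals mark the letters TATAAA and CCAAT on either strand, so that CCAAT on the opposite strand reads ATTGG; neither motif contains the other. The windows are Hist1h4m at chr13:21811496-21811795 (plus strand), Hist1h4n at chr13:21832148-21832447 (minus strand) and Hist1h2bq at chr13:21810150-21810449 (minus strand).
Hist1h4m: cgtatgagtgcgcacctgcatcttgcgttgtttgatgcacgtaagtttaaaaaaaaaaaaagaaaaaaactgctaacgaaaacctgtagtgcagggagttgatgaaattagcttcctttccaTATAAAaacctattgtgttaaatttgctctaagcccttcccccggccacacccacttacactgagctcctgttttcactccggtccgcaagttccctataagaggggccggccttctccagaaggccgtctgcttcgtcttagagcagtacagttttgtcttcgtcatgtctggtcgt
Hist1h4n: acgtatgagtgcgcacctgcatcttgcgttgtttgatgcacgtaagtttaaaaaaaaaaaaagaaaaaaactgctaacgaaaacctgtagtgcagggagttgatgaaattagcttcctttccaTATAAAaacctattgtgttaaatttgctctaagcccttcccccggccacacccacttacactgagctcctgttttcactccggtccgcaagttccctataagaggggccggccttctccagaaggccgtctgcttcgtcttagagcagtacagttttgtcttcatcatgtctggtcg
Hist1h2bq: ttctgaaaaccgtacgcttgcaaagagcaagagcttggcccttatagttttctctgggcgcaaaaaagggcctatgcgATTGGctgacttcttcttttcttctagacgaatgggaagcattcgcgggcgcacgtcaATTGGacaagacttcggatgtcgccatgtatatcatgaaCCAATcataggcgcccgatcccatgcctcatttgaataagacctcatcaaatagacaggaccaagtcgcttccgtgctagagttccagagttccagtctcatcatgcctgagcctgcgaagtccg

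The window of Hist1h2br, at chr13:21833493-21833792 on the plus strand, was identical to that of Hist1h2bq in 300 of 300 bases. The windows of Hist1h4m and Hist1h4n, which are offset by 1 base, matched in 298 of 301 alignment columns, with 1 mismatch and 2 gap columns. TATAAA occurred in the windows of 3 of the 7 genes (Hist1h2an, Hist1h4m and Hist1h4n) and in 13.6% of 32851 RefSeq promoter windows. CCAAT occurred in the windows of 5 of the 7, that is of each H2A and H2B gene, and in 37.4% of all windows. The windows of Hist1h2bq and Hist1h2ao overlap on opposite strands, as do those of Hist1h2br and Hist1h2ap. With the likeness of the mirrored copies, the hits of the 7 windows are not independent for either motif.

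The coding sequences of the mirrored copies were the same in every base: 393 of 393 for Hist1h2ao and Hist1h2ap, 381 of 381 for Hist1h2bq and Hist1h2br, and 312 of 312 for Hist1h4m and Hist1h4n. Hist1h2an matched Hist1h2ao in 388 of 393 coding bases, and the changes, counted from 1 at the A of the start codon with the base of Hist1h2an first, were A18G, C24T, G150C, A345G and G354C, each at the last base of its codon. The first 30 coding bases are shown with the first 2 of these positions in capitals, since they hold some of the few bases by which a read could be placed.
Hist1h2an: atgtctggacgcggcaaAcagggCggcaag
Hist1h2ao: atgtctggacgcggcaaGcagggTggcaag
Hist1h2ap: atgtctggacgcggcaaGcagggTggcaag

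The histone stem-loop, a motif with variable letters searched on the strand of the transcript, was found after the stop codon in 4 of the 7 genes as M21 annotates them and in 37 of the 52 clustered rows. At any place in a protein-coding transcript, it was found in 47 of the 21901 genes that have one (0.215%). It started at base 39 after the stop codon in Hist1h2ao and Hist1h2ap and at base 34 in Hist1h4m and Hist1h4n. The sites are printed with 5 bases on either side, or up to the end of the annotated transcript where that is nearer, and with stem and loop in capitals.
Hist1h2ao: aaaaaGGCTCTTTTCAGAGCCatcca
Hist1h2ap: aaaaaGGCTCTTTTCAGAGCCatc
Hist1h4m: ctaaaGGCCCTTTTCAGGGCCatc
Hist1h4n: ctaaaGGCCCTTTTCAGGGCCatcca

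The stem-loops within a pair were alike, and the pairs differed in the letters of the stem. M21 gives Hist1h2an 0 bases of 3′ untranslated region, so none could be found there. The shortest coding transcripts of Hist1h2bq and Hist1h2br, of 381 bases, are likewise coding throughout. A longer transcript of each has 823 bases of 3′ untranslated region, in which no site was found. The annotation therefore does not tell whether these genes carry a stem-loop. Of windows of 100 bases along each gene's shortest coding transcript, 0 of 282 in Hist1h2bq and 0 of 282 in Hist1h2br occurred in no other M21 gene. The share was 28 of 381 (7.35%) in Hist1h2ao, 30 of 383 (7.83%) in Hist1h2ap, 36 of 303 (11.9%) in Hist1h4m, 49 of 294 (16.7%) in Hist1h2an and 64 of 331 (19.3%) in Hist1h4n. The counter is not given in the sources used here, nor is the read length. None of the 42 values of the 7 genes was exactly whole (no tolerance), against 72.2% to 74.5% of all values in a library, counted in the same way, and 7 of the 42, in 5 of the 7 rows, were under 0.01 counts. A row's value is therefore an estimate of how shared reads divide between copies, and the level of a single copy is uncertain.

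H2A wraps DNA in the nucleosome as a dimer with H2B. Hist1h2an had 7.93, 2.23 and 13.7 estimated counts in injured A, B and C, against under 0.01, under 0.01 and 2.75 in non-injured A, B and C. Injured B lay below non-injured C, so the groups overlapped. The means were 1.16 ± 0.80 CPM (estimated counts scaled to library size by TMM; SD, n = 3) in injured and 0.122 ± 0.212 CPM in non-injured libraries. Hist1h2ao had 19.2, 4.10 and 0.0498 counts in injured libraries, against 15.2, under 0.01 and 1.51 counts in non-injured libraries. Both A libraries were the high ones, and the other libraries held little of it in either group. Its twin Hist1h2ap had 5.85, 11.6 and 19.4 counts in injured libraries, against 0.177, 4.62 and 6.54 counts in non-injured libraries. On the CPM scale Hist1h2ap was at 0.893, 1.76 and 2.75 in injured and at 0.0226, 0.529 and 0.873 in non-injured libraries, so that every injured library lay above every non-injured one. The margin was thin: before scaling for depth, the 5.85 counts of injured A were below the 6.54 of non-injured C. It was the only one of the 7 genes whose groups did not overlap; every injured library lay above every non-injured one in 14.0% of all rows, and below in 8.16%.

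H2B is the partner of H2A. Hist1h2bq had 12.3, 13.7 and 4.12 counts in injured libraries, against 9.22, 3.11 and under 0.01 counts in non-injured libraries. Its mean was 1.52 ± 0.81 CPM in injured and 0.510 ± 0.602 CPM in non-injured libraries, and injured C lay within the non-injured range. Hist1h2br, of the same sequence, ran the other way, with under 0.01, 2.08 and under 0.01 counts in injured libraries, against 7.70, 2.16 and 14.5 counts in non-injured libraries. Its mean was 0.105 ± 0.182 CPM in injured and 1.06 ± 0.85 CPM in non-injured libraries, and injured B lay above non-injured B on that scale.

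H4 joins H3 in the tetramer at the centre of the nucleosome, and Hist1h4n had the highest counts of the 7 genes in all 6 libraries. It had 29.6, 36.0 and 52.05 counts in injured libraries, against 40.7, 54.4 and 28.4 counts in non-injured libraries. The groups overlapped throughout, at 5.79 ± 1.47 CPM in injured and 5.06 ± 1.22 CPM in non-injured libraries. Hist1h4m had 15.9, 0.0259 and 1.97 counts in injured libraries, against 24.9, under 0.01 and 13.9 counts in non-injured libraries. As with Hist1h2ao, the library of letter A was the high one in each group and that of letter B was near 0. Its mean was 0.902 ± 1.32 CPM in injured and 1.68 ± 1.59 CPM in non-injured libraries.

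**Figure D2:**
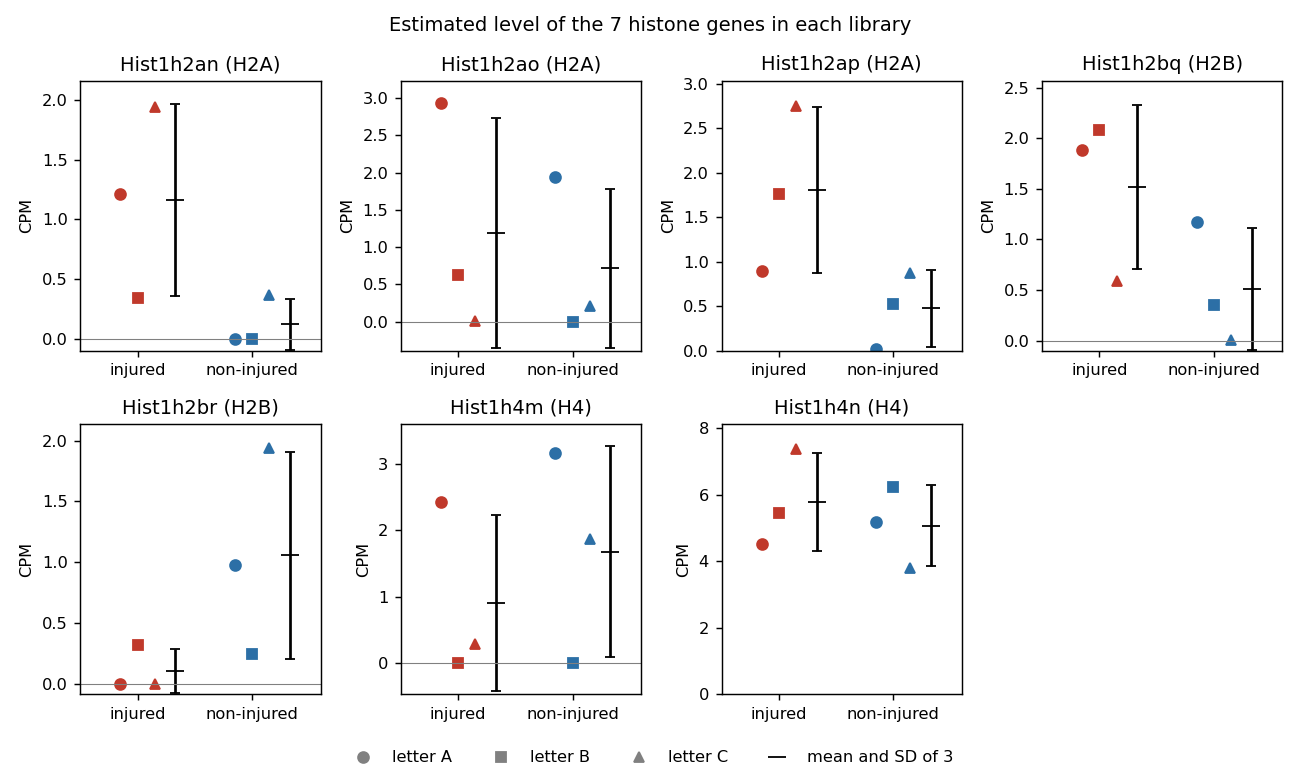
CPM of each of the 7 genes (vertical axes, each with its own range) in injured and non-injured libraries; symbols give the letter, and bars the mean and SD of 3 libraries. The groups are apart for Hist1h2ap alone, and Hist1h4n, at 3.79 to 7.39 CPM, is the gene whose libraries differ least in proportion.

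Per kilobase of annotated exon, the mean level of Hist1h4n was 13.5 CPM per kb in injured and 11.8 CPM per kb in non-injured libraries, above each of the other 6 genes. In injured libraries Hist1h2ap followed at 3.74, Hist1h2an at 2.96, Hist1h2ao at 2.48 and Hist1h4m at 2.24 CPM per kb, and in non-injured libraries Hist1h4m followed at 4.17, Hist1h2ao at 1.49, Hist1h2ap at 0.985 and Hist1h2an at 0.312 CPM per kb. The libraries of these 4 genes overlapped one another in each group, so their order was not beyond the spread. Hist1h2bq, at 0.753 and 0.253, and Hist1h2br, at 0.0476 and 0.478 CPM per kb in injured and non-injured libraries, were low on this scale, on which their long alternative exons count (2015 and 2212 bases).

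The division of counts within a pair changed from library to library far more than the pair's sum. Of the counts of Hist1h2ao and Hist1h2ap together, Hist1h2ao took 76.7%, 26.1% and 0.256% in injured A, B and C, against 98.9%, under 0.01% and 18.8% in non-injured A, B and C. Hist1h2bq took all but a trace, 86.9% and 99.96% of its pair in injured libraries, against 54.5%, 58.9% and 0.0228% in non-injured libraries. Hist1h4m took 35.0%, 0.0720% and 3.64% of its pair in injured libraries, against 38.0%, 0.00646% and 32.96% in non-injured libraries. For the H2A and H4 pairs, libraries of 1 group differed in this share by as much as libraries of different groups. For the H2B pair the share of Hist1h2bq was 86.9% or more in each injured library and 58.9% or less in each non-injured one, although the copies are alike in every coding base and no window of 100 bases in their shortest coding transcripts was particular to either; their longer transcripts were not searched. Over the 6 libraries the coefficient of variation was 128% for Hist1h2ao and 85.6% for Hist1h2ap but 56.8% for their sum. It was 83.4% for Hist1h2bq and 130.4% for Hist1h2br but 49.9% for their sum. For Hist1h4m it was 107%, for Hist1h4n 23.4% and for their sum 17.0%.

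Summed over both copies, Hist1h2ao and Hist1h2ap reached 3.83, 2.38 and 2.76 CPM in injured libraries, against 1.96, 0.529 and 1.07 CPM in non-injured libraries. The lowest injured library lay above the highest non-injured one, with means of 2.99 ± 0.75 CPM in injured and 1.19 ± 0.72 CPM in non-injured libraries and a log2 ratio of the means of 1.33. Since Hist1h2ap is a row only through its injured libraries, this gap is no support for a difference. Hist1h2bq and Hist1h2br together reached 1.88, 2.40 and 0.585 CPM in injured libraries, against 2.15, 0.603 and 1.94 CPM in non-injured libraries, and overlapped (log2 ratio 0.05). The opposite runs of the H2B copies were not seen in their sum. Hist1h4m and Hist1h4n together reached 6.93, 5.47 and 7.67 CPM in injured libraries, against 8.34, 6.23 and 5.65 CPM in non-injured libraries, with a log2 ratio of -0.01.

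**Figure D3:**
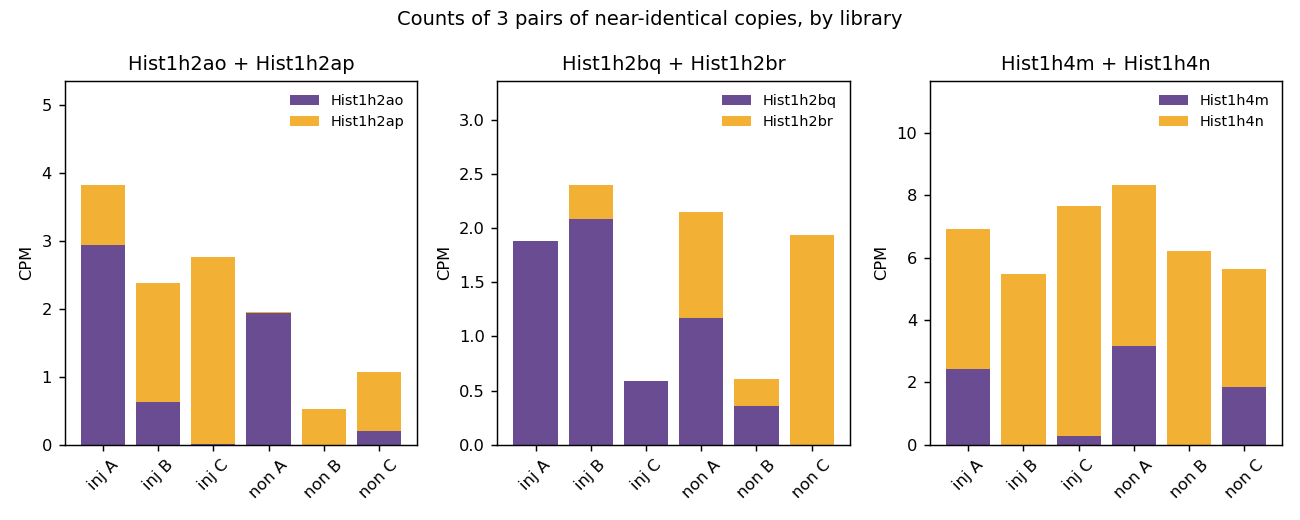
Stacked CPM of each pair of copies in each library (inj, injured; non, non-injured; letters A to C), with the colours marking the 2 copies. For Hist1h2ao and Hist1h2ap the larger part changes from copy to copy among libraries of 1 group, Hist1h4n is the larger part of its pair throughout, and the height of the Hist1h4m and Hist1h4n bars runs from 5.47 to 8.34 CPM.

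None of the 7 genes passed the test between injured and non-injured libraries. Only Hist1h4m and Hist1h4n had enough counts to pass the filter on low values (edgeR's filterByExpr), and 0 of these 2 was called (edgeR quasi-likelihood test, Benjamini-Hochberg adjusted p under 0.05 over 16095 genes), where 0.715% of all genes tested were called higher and 0.0311% lower. DESeq2 and limma-voom also called 0, and 0 of the 2 had an unadjusted p under 0.05 in edgeR. Hist1h4n had a log2 fold change of 0.20 ± 0.30 (SE, edgeR adjusted p 0.801) and Hist1h4m one of -0.87 ± 1.09 (SE, edgeR adjusted p 0.755). The standard error of Hist1h4m leaves room for a sizeable change in either direction. With no filter on low counts, all 7 genes could be tested among 20015 and 0 were called by edgeR, where 0.615% of all rows were called higher and 0.0849% lower. In that fit 2 of the 7 had an unadjusted p under 0.05, as had 16.4% of all rows. These were Hist1h2an, with a log2 fold change of 3.01 ± 1.29 (SE, edgeR adjusted p 0.269), and Hist1h2br, with -3.28 ± 1.35 (SE, edgeR adjusted p 0.251). Fold changes of such genes, with libraries under 0.01 counts, depend on the prior count that edgeR adds. For Hist1h2ap the fit without a filter gave 1.77 ± 0.86 (SE, edgeR adjusted p 0.315), for Hist1h2bq 1.51 (adjusted p 0.437) and for Hist1h2ao 0.64 (adjusted p 0.814). Hist1h2an, Hist1h2ap and Hist1h2bq reached 10 counts, the lowest row maximum, in injured libraries alone, and Hist1h2br in a non-injured library alone. The change of each of these genes points to the group through which it is a row, so it is no support for a difference. With the letter as a replicate block, 0 of the 2 were called by edgeR, where 3.21% of all genes were called higher and 2.65% lower. With the block and no filter 0 of the 7 were called, where 2.98% of all rows were called higher and 3.47% lower, and 3 of the 7 (Hist1h2an, Hist1h2ap and Hist1h2br) had an unadjusted p under 0.05, as had 22.2% of all rows.

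**Figure D4:**
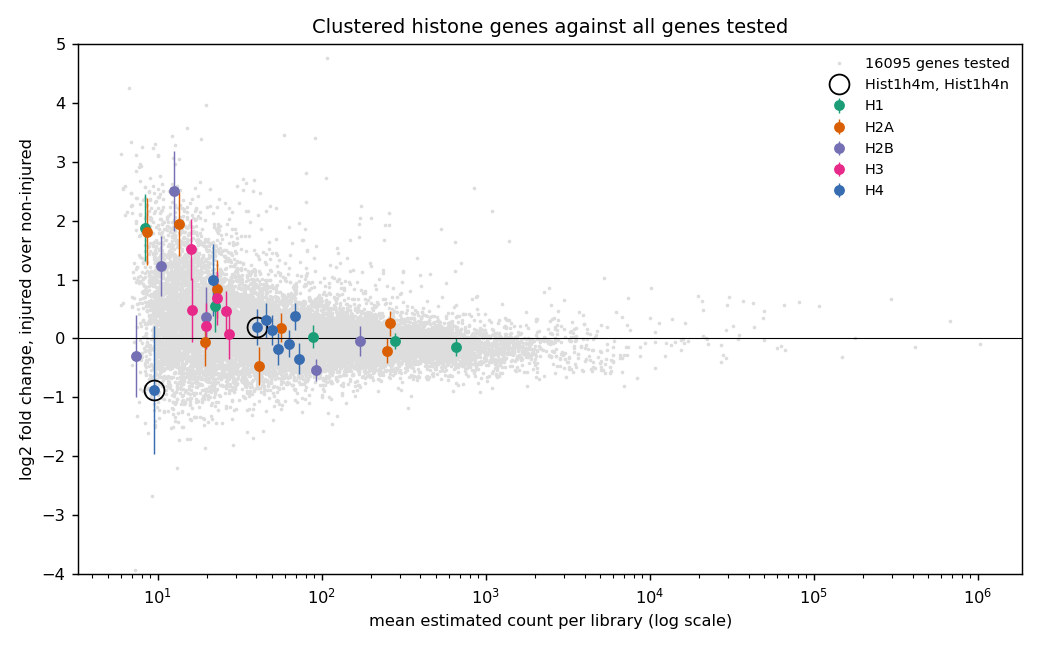
Log2 fold change, injured over non-injured (vertical axis), against the mean estimated count per library (horizontal axis, log scale) for 16095 genes (grey) and the 34 clustered histone genes tested (coloured by class, bars SE). Hist1h4m and Hist1h4n are circled at -0.87 and 0.20, and the coloured points spread to higher values at the low counts, where the grey points do too.

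Added up by class, H2A stood apart among the 7 genes. The 3 H2A genes together reached 5.04, 2.72 and 4.70 CPM in injured libraries, against 1.96, 0.529 and 1.44 CPM in non-injured libraries. All injured libraries lay above all non-injured ones, at 4.15 ± 1.25 CPM in injured and 1.31 ± 0.73 CPM in non-injured libraries. The ratio was 3.17 (1.66 on the log2 scale), and no test was run on sums. Hist1h2an and Hist1h2ap reached 10 counts, the lowest row maximum, in injured libraries alone. They were rows only through the group where they are high, so the gap is no support for a difference. The gap depended on which rows were summed: Hist1h2al, an H2A row of the same naming that the table calls a processed pseudogene, had 24.99, 1.004 and 0 counts in injured libraries, against 24.0, 5.26 and 3.07 counts in non-injured libraries. With it the sum was 8.85, 2.87 and 4.70 CPM in injured and 5.02, 1.13 and 1.85 CPM in non-injured libraries, the groups overlapped and the ratio was 2.05 (1.04 on the log2 scale). These sums rest on 17.9 to 33.1 counts in injured and 4.62 to 15.4 counts in non-injured libraries. The 2 H2B genes reached 1.62 ± 0.94 CPM in injured and 1.57 ± 0.84 CPM in non-injured libraries, and the 2 H4 genes 6.69 ± 1.12 CPM in injured and 6.74 ± 1.41 CPM in non-injured libraries, with overlap in both. All 7 together reached 13.8, 10.6 and 12.95 CPM in injured libraries, against 12.5, 7.36 and 9.04 CPM in non-injured libraries, with a log2 ratio of 0.37 and overlapping groups.

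The 7 genes held between 2.22% and 3.46% of the counts of the 52 clustered histone rows. H1 genes, which encode the linker histone, took the largest class share at 36.5% to 41.6%, and reached 146, 132 and 143 CPM in injured libraries, against 164, 132 and 147 CPM in non-injured libraries. The 15 H2A rows reached 109, 92.2 and 108 CPM in injured and 94.4, 86.8 and 92.7 CPM in non-injured libraries. Their log2 ratio of 0.17 was below that of the 3 H2A genes of the older symbols. Most of the class sum came from H2ac18 (mean 38.3 CPM injured, 32.1 non-injured) and H2ac19 (31.6 and 36.6). Among other H2A rows of low counts some had a like or larger ratio, as H2ac12 did (3.07 and 0.788), and some had none. The ratio was therefore not particular to the 3 genes. The 11 H2B rows overlapped as well (log2 ratio 0.05). The 9 H3 rows, a class with no gene among the 7, reached 26.0, 26.3 and 24.8 CPM in injured libraries, against 18.6, 13.6 and 16.6 CPM in non-injured libraries, a ratio of 1.58 with no overlap. The 12 H4 rows reached 63.0, 62.1 and 65.4 CPM in injured and 61.5, 57.1 and 54.6 CPM in non-injured libraries, apart by a log2 ratio of 0.14. Some of the H3 and H4 rows reached 10 counts, the lowest row maximum, in injured libraries alone. They were rows only through the group where they are high, so neither gap is support for a difference.

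**Figure D5:**
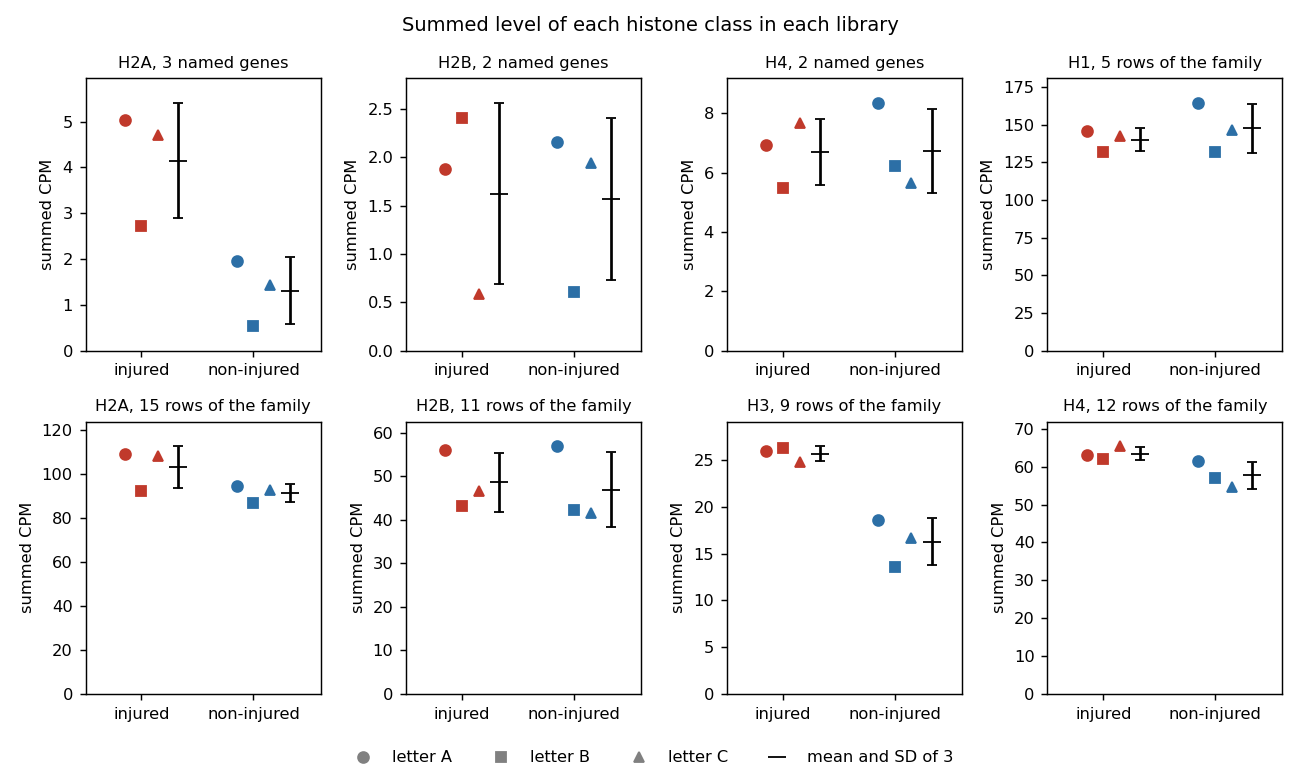
Summed CPM (vertical axes, from 0) by class in injured and non-injured libraries, for the genes of the 7 in the first 3 panels and for the 52 clustered rows in the others; symbols give the letter, bars the mean and SD of 3 libraries. The groups are apart for the 3 H2A genes, the 9 H3 rows and the 12 H4 rows. Each of these sums holds rows that reached 10 counts, the lowest row maximum, in injured libraries alone.

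Of the 52 rows, 34 passed the filter and 0 were called by edgeR, while 7 had an unadjusted p under 0.05, 6 of them higher in injured libraries, where 15.4% of all genes had such a p and 9.25% were higher with it. The log2 fold change was positive in 22 of the 34, as in 50.2% of all genes tested. Its median was 0.21 over the 34 genes and 0.00 over all genes tested; by class it was 0.03 for 5 H1, 0.22 for 8 H2A, 0.17 for 6 H2B, 0.47 for 6 H3 and 0.14 for 9 H4 genes. By abundance, 12 of the 34 averaged under 20 counts in a library and had a median of 0.85, where all 3303 genes at that level had 0.39. The 17 with a mean of 20 to 100 counts had 0.18, where all 6471 had 0.04, and the 5 with a mean of 100 or more had -0.04, where all 6321 had -0.09. The smallest p was that of H2bc12, an H2B gene with 17.3, 24.4 and 20.6 counts in injured libraries, against 4.07, 9.27 and 0.187 counts in non-injured libraries. Its log2 fold change was 2.50 ± 0.68 (SE, edgeR adjusted p 0.100). With the letter as a replicate block it was 2.65 (edgeR adjusted p 0.0273) and passed, as 3.21% of all genes did in that direction, and with DESeq2 it was 2.54 (adjusted p 0.0256) and passed, as 1.57% did. It did not pass with limma-voom (3.17, adjusted p 0.110). The smallest p of the other classes belonged to H2ac12 (log2 fold change 1.95 ± 0.55 SE, edgeR adjusted p 0.112), the linker gene H1f1 (1.88 ± 0.57 SE, adjusted p 0.137), H3c13 (1.52 ± 0.52 SE, adjusted p 0.189) and H4c1 (0.99 ± 0.61 SE, adjusted p 0.474). For H2bc12, H2ac12 and H1f1 only injured libraries met, after rounding, the filter's level of 10 counts. Their highest non-injured values were 9.27, 8.19 and 6 counts. These genes were tested through the group where they are high, so their rank is no support for a difference. The same held for most of the 6 genes with an unadjusted p under 0.05 in edgeR and higher in injured libraries. That count of 6 is therefore no support either. The most abundant H2B genes were H2bc4, at 30.3, 17.2 and 21.4 CPM in injured and 33.2, 19.8 and 17.9 CPM in non-injured libraries, and H2bc6. H2bc6 was the 1 row of the 52 with every injured library below every non-injured one (10.03, 10.7 and 9.17 CPM in injured, 14.2, 13.7 and 16.0 CPM in non-injured), with a log2 fold change of -0.54 ± 0.19 (SE, edgeR adjusted p 0.195). In 12 of the 52 rows every injured library lay above, where over all rows the shares were 14.0% above and 8.16% below. Most of the 12, H2bc12, H2ac12 and H1f1 among them, reached 10 counts, the lowest row maximum, in injured libraries alone. They were rows only through the group where they are high, so this count is no support for a difference.

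Genes that act with the clustered histones in other steps were compared in the same fit. Of 28 listed genes of DNA replication and S phase, 26 were rows and 20 were tested. Of these 1 was higher and 0 lower (edgeR), where 0.715% of all genes tested were higher and 0.0311% lower. Their median log2 fold change was 0.55. An unadjusted p under 0.05 was found for 9 of the 20, as for 15.4% of all genes, and a positive log2 fold change for 16, as for 50.2%. The 1 was Mki67, a protein of the chromosome surface in dividing cells, at 10.3 ± 2.73 CPM in injured and 1.84 ± 1.28 CPM in non-injured libraries. Tk1 and Rrm1, which supply DNA building blocks, were at 16.9 ± 5.71 and 19.1 ± 4.85 CPM in injured and at 19.7 ± 0.62 and 20.8 ± 0.48 CPM in non-injured libraries, with overlap. Summed, the 26 rows reached 107 to 137 CPM in injured and 91.2 to 98.2 CPM in non-injured libraries. With the replicate block 3 of the 20 were higher, where 3.21% of all genes were. With DESeq2 3 were higher, where 1.57% of all genes were, and with limma-voom 0. For limma-voom no share over all genes was computed. Of 18 tested genes that transcribe, process or degrade histone mRNA, 0 were called (median -0.06, 1 with an unadjusted p under 0.05), nor were 9 replication-independent histone genes such as H3f3a and H3f3b (median 0.20, 1 with such a p) or 15 histone chaperones (median -0.11, 1 with such a p). DESeq2 and limma-voom also called 0 in each of these 3 lists.

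Markers of other cells moved with the groups, and their part in the H2A, H3 and H4 differences was not tested. Of 12 tested macrophage markers, 4 were higher in injured libraries (Itgam, Lyz2, C1qb and Mrc1), where 0.715% of all genes tested were. The replicate block gave 9, where 3.21% of all genes were higher, DESeq2 7, where 1.57% were, and limma-voom 3. The list of 13 rows summed to 121 to 208 CPM in injured and 57.0 to 73.2 CPM in non-injured libraries. None of its rows was at 0 in all libraries. Of 8 fibroblast markers, 3 were higher (Col1a1, Col1a2 and Col3a1). The 8 summed to 521 to 859 CPM in injured and 214 to 283 CPM in non-injured libraries. Collagen genes weigh heavily in that sum, with mean CPM of 207 against 35.1 for Col1a1 and 253 against 56.7 for Col3a1. All 8 had a positive log2 fold change, but Dcn was level, at 70.4 ± 7.46 CPM in injured and 70.3 ± 11.9 CPM in non-injured libraries. The 7 tested endothelial and 10 muscle markers gave 0 calls with edgeR, DESeq2 and limma-voom and 0 genes with an unadjusted p under 0.05 in edgeR. Muscle markers, Ttn and Acta1 among them, summed to 168013 to 175941 CPM in injured and 182614 to 191288 CPM in non-injured libraries. Receptor genes of smell, olfactory and vomeronasal, also lay above in injured libraries, at 404 to 926 CPM in injured and 227 to 318 CPM in non-injured libraries summed over 402 rows, of which 68 passed the filter on low counts. In bulk RNA, fewer cells of a type and less RNA per cell cannot be told apart.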

How the data were processed

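RNA from 6 quadriceps libraries was sequenced, and 1 gene table of estimated counts was deposited by the authors; per the submitters' processing notes STAR 2.7.8a, Partek and DESeq2 were named, with no role or order. The counter is not given in the sources used here, nor are its strand setting, the library selection and the annotation. The lowest row maximum was 10.0, so genes below that in all libraries are absent. The labels describe total RNA from muscle, the table's title myonuclear RNA. Symbols were matched to GENCODE M21 on mm10 by chromosome, strand and start, with the end 1 base beyond.

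Deposited estimated counts were rounded, filtered with filterByExpr (minimum count 10 in enough libraries, 15 in total), scaled by TMM and tested with edgeR 4.0.16 (limma 3.58.1, DESeq2 1.42.0, R 4.3.3), injured against non-injured, two-sided, with p adjusted over all genes. Each standard error is the size of the log2 fold change divided by the root of its F. CPM use unrounded counts. On simulated data 169 of 200 genes changed 4-fold were recovered (84.5%), with 13 false calls. Libraries of the same letter deviated together (r 0.316 for A, 0.208 for B and 0.113 for C over 16095 genes), so the letter was used as a replicate block in an alternative fit; its meaning is not given in the labels.

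The 7 genes, the other lists and the tests were chosen with earlier results of these data known. All 7 genes are named; of the other 45, those named are the 3 with the highest mean count in a class where a value is shown, and the 1 with the smallest p, and, outside that rule and after its values were seen, H2ac7, which 1 alternative called. In each related list, named genes are among those with the smallest p or the highest mean. Sequences were aligned globally, and each is credited to RefSeq (promoters) or to the M21 transcripts.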

Additional observations from a re-analysis of the deposited data

How the results depend on the processing

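Call counts for the 7 genes stayed at 0 higher and 0 lower under RLE scaling, library totals, no filter, rounding down, DESeq2, limma-voom, the replicate block, leaving out both A libraries, and leaving out each library (0 to 0). A filter on a mean of 50 counts left none of the 7, so it gave no value. For the 52 clustered rows, leaving out each library also gave 0 to 0 calls, while 1 gene was called higher with DESeq2, 1 with the replicate block (H2bc12 in both) and 3 with no filter and the replicate block together, a fit chosen after seeing the data (H2ac12, H2bc12 and H2ac7). The replicate block changed no other call among them. Hist1h4n ran from -0.032 (without injured C) to 0.36 (without non-injured B), and Hist1h4m ran from -3.38 (without injured A) to -0.03 over the fits that left out 1 library. Over rows that pass the filter, the summed log2 ratio was -0.011 for the 7 genes, since no H2A gene passes, against 0.37 for all 7. It was 0.51 for the H3 rows, against 0.66, and 0.061 for the H4 rows, against 0.14. With the pseudogene row Hist1h2al the ratio was 1.04 for H2A, with overlapping groups, and 0.33 for all. Leaving out each library, it ranged from 1.29 to 2.08 for the 3 H2A genes, -0.34 to 0.45 for H2B, -0.12 to 0.17 for H4, 0.21 to 0.60 for all 7 and 0.54 to 0.77 for the 9 H3 rows. Depth is a limit, since 6 of the 7 genes had a mean under 10 counts per library, and copies of the same sequence cannot be parted by counts.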
